A study of Homo sapiens with 36 samples.

Results

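The genes described here are 10 factors of translesion synthesis and DNA damage tolerance, namely *POLH*, *POLK*, *POLI*, *REV1*, *REV3L*, *MAD2L2*, *RAD18*, *HLTF*, *SHPRH* and *PRIMPOL*. They were chosen by name, for their known roles, out of 62757 genes listed in the count tables. Of the 10 genes, 9 were among the 12356 genes with enough reads to be tested, and *SHPRH* was not.

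PolyA mRNA was sequenced from HCT-116 cells, an established human colorectal carcinoma line, either WT or with both copies of *FBXW7* disrupted (FBXW7-/-, below KO). *FBXW7* encodes the substrate receptor of a ubiquitin ligase. Oxaliplatin (OXPT), a platinum drug that forms DNA adducts, was given at 50 µM for the last 24 h of a 48 h culture after transfection, and untreated cells received the solvent. Each of the 8 groups held 3 libraries. The KO cells carried a control esiRNA (esiCT), an esiRNA pool against the histone deacetylase *HDAC4* (esiHDAC4), or esiCT together with #11, a PROTAC degrader directed at HDAC4 protein, each without and with OXPT. The entries for the #11 libraries give its dose inconsistently, so no dose is stated here. The paper reports that the PROTAC degrader also led to loss of the other class IIa histone deacetylases. A difference seen with the degrader therefore cannot be assigned to loss of HDAC4 alone. The WT cells formed one untreated and one OXPT group. The esiRNA of these WT libraries is given differently in different entries, so the WT groups are named by genotype and OXPT only, and a difference in esiRNA from the KO esiCT cells cannot be told apart from a difference in genotype. Whether the KO cells were 1 clone or several is not given in the sources used here. A further 12 WT libraries have conflicting OXPT entries and entered no comparison.

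Platinum adducts and other lesions stop the replicative DNA polymerases. Damage tolerance lets replication continue without removing the lesion. RAD18 attaches ubiquitin to the sliding clamp PCNA, which brings specialised low-fidelity polymerases to the lesion, whereas longer ubiquitin chains on PCNA, built with HLTF or SHPRH, direct template switching. Polymerase eta, the product of *POLH*, can insert bases opposite platinum crosslinks between neighbouring guanines, polymerase zeta extends from such sites, and PRIMPOL restarts synthesis beyond the lesion with a new primer. *POLH* is also a known transcriptional target of p53, and HCT-116 cells carry wild-type p53.

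The 24 libraries held between 10725966 and 20527222 reads counted on genes (median 14510758). Among the 6 groups without #11, replicate 3 had the highest share of unmapped reads in both WT groups and both KO groups with OXPT. In untreated KO esiCT (8.97%) and KO esiHDAC4 cells (8.92%) it did not stand apart. Over the 6 groups the share in replicate 3 had a median of 12.7% (8.92% to 22.3%, 6 libraries). It was 9.09% (7.74% to 10.5%) in the 12 libraries numbered 1 and 2 of these groups. The 6 libraries with #11 had a median of 9.50% (8.89% to 10.3%). Epithelial keratins and adhesion genes were present (5 of 8 epithelial markers at or above 1 CPM, a read count scaled to library size, in every group), whereas *VIL1*, *CDX1* and *LGALS4* were below that level. None of 5 leukocyte markers reached 1 CPM in any group. 1 of 6 fibroblast markers, *COL1A1*, did so in every group, and at most 1 of 3 endothelial markers did. The summed level of the 8 epithelial markers was 5115 to 10275 CPM in untreated libraries and 8467 to 21571 CPM with OXPT. Its part in the results was not tested. *HDAC4* mRNA was 19.1 ± 5.45 CPM (SD, n = 3) with esiCT and 10.9 ± 3.48 with esiHDAC4 in untreated KO cells, a difference that did not pass the test (log2 fold change −0.82, edgeR adjusted p = 0.590). *FBXW7* mRNA was 16.9 ± 1.34 CPM in KO and 21.1 ± 3.60 in WT untreated cells, which does not separate the genotypes. These are mRNA levels only. For the KO cells the paper reports a deletion found by Sanger sequencing and immunoblots of FBXW7, and for silencing it reports immunoblots of HDAC4. In the tests below, edgeR's quasi-likelihood test was adjusted after Benjamini-Hochberg over the 12356 genes, and a gene was called at an adjusted p under 0.05 with a fold change over 1.5. Nothing in the labels says whether the 3 libraries of a group came from separate cultures, so the p-values measure only the spread between these libraries, which may be technical.

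The levels of the 10 genes spanned a wide range. Per kilobase of exon, the untreated KO esiCT cells held most mRNA of *MAD2L2* (28.6 ± 1.23 CPM per kb, SD, n = 3). *POLH* (2.89 ± 0.53), *RAD18* (2.83 ± 1.39) and *REV1* (2.62 ± 0.32) followed, and these neighbours did not differ beyond their spread. *PRIMPOL* stood at 1.54 ± 0.043, *POLI* at 1.14 ± 0.15 and *HLTF* at 1.11 ± 0.38 CPM per kb. The lowest levels were those of *REV3L* (0.549 ± 0.25), *POLK* (0.197 ± 0.054) and *SHPRH* (0.0887 ± 0.039). Exon length joins all annotated exons of a gene (17.9 kb for *POLK*, 17.7 kb for *SHPRH*) and includes bases shared with other genes. The order of the genes depends on this choice of length. With OXPT the level of *POLH* was 11.7 ± 1.70 CPM per kb in the same cells and that of *MAD2L2* 27.2 ± 5.97.

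**Figure D1:**
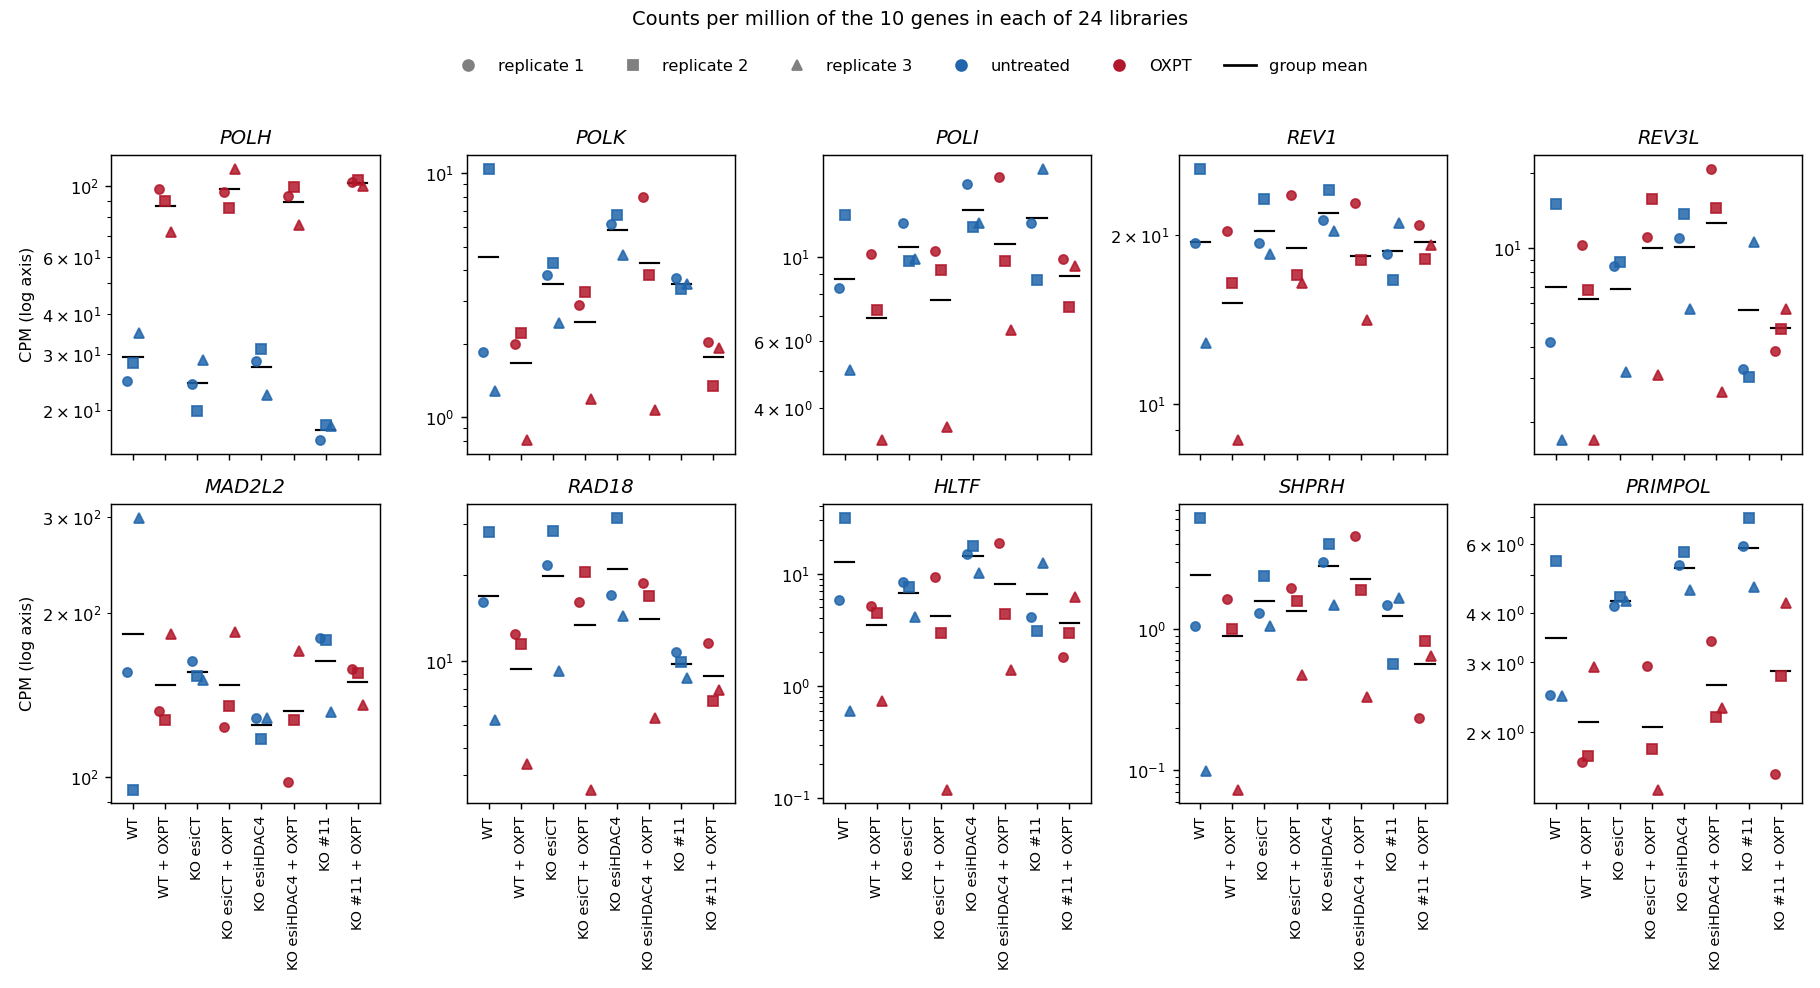
Level of each of the 10 genes in CPM (log axis) in all 24 libraries, by group. Marker shapes give the replicate number and bars the group mean. *POLH* lies between 16.1 and 34.9 CPM in every untreated library and between 71.9 and 113 CPM in every OXPT library, while the other genes overlap between the states.

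*POLH* was the only one of the 9 tested genes called in any comparison, and it rose with OXPT in all 4 backgrounds. The *POLH* gene lies on the plus strand at chr6:43576185-43620523 (GRCh38) and faces *XPO5*, which encodes a nuclear export receptor for microRNA precursors and starts on the other strand. The stretch between the start sites of the pair, at chr6:43576039-43576184, is shown because a single promoter region separates a gene that rose from one that was not called. It was taken from RefSeq (GRCh38.p14), is written 5′ to 3′ on the strand of *POLH*, and has the GGGCGG motif of SP1-type factors in capitals:
POLH: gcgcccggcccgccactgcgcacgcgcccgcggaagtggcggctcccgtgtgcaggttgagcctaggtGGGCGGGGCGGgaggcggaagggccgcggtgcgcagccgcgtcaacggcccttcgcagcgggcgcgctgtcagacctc
The 146 bases are 78.1% G and C. The motif was searched on both strands and occurred 2 times, at 78 and 73 bases before the *POLH* start, with 1 shared base between the occurrences. At least 1 GGGCGG was found in 36.4% of 35114 RefSeq promoter windows of the same length. The letters CCAAT were not in this window and were in 23.1% of those windows. A half-site of the p53 motif was in none of the 12 RefSeq promoter entries of the 10 genes, each of 300 bases, and in 6.63% of all promoters of that length. These matches describe letters only and say nothing of factor binding.

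In KO esiCT cells the untreated replicates 1, 2 and 3 held 24.0, 19.9 and 28.7 CPM of *POLH*, and the OXPT replicates held 96.3, 85.2 and 113 CPM. *POLH* thus rose 4.06-fold (log2 fold change 2.02, SE 0.19, 95% confidence interval (CI) 1.62 to 2.42, adjusted p = 2.23e-06). It was 1 of 9 genes called higher in this comparison, where 6.19% of all tested genes were called higher and 11.2% were called in either direction. In KO esiHDAC4 cells the values were 28.4, 31.0 and 22.3 CPM untreated and 93.1, 99.2 and 75.7 CPM with OXPT. The increase was 1.71 on the log2 scale (SE 0.19, CI 1.32 to 2.11, adjusted p = 7.63e-06), and again *POLH* alone of the 9 genes was called, against 6.41% of all genes called higher and 11.9% in either direction. The libraries of the 2 states did not overlap in either background, as for 15.3% and 18.8% of all genes in the higher direction.

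With #11 the *POLH* level was 16.1, 17.9 and 17.9 CPM in the untreated KO libraries and 103, 104 and 100.1 CPM with OXPT, the narrowest spread of any group pair. The log2 fold change was 2.57 (SE 0.20, CI 2.16 to 2.98, adjusted p = 2.82e-07), with 5.92% of all genes called higher, 9.43% called in either direction and 22.4% higher without overlap. In WT cells the values were 24.6, 28.1 and 34.9 CPM untreated and 97.7, 90.0 and 71.9 CPM with OXPT. The WT log2 fold change was 1.57 (SE 0.19, CI 1.17 to 1.96, adjusted p = 1.90e-05), with 5.09% of all genes called higher, 10.7% called in either direction and 11.5% higher without overlap. When only the 6 WT libraries were fitted, the estimate was 1.52 and the call was lost (adjusted p = 0.0717). Leaving out any single library kept *POLH* called in 24 of 24 fits in each of the 4 comparisons, with log2 fold changes of 1.88 to 2.16 in KO esiCT, 1.60 to 1.82 in KO esiHDAC4, 2.50 to 2.59 in KO #11 and 1.46 to 1.71 in WT cells. WT replicate 3 had the highest untreated and the lowest OXPT value of the WT libraries. Without number 3 in every group the WT estimate was 1.85. In bulk RNA a change in the number of cells of a type and a change in RNA per cell cannot be told apart.

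The neighbours of *POLH* were read for comparison. *XPO5* had log2 fold changes of 0.17, 0.18, 0.01 and −0.12 with OXPT in KO esiCT, KO esiHDAC4, KO #11 and WT cells, and it was called in none. *GTPBP2*, which encodes a GTP-binding protein of ribosome rescue and shares 261 bases of exon with *POLH* on the other strand (3.12% of *POLH* exon sequence), fell with OXPT in KO #11 cells (−1.44, adjusted p = 0.0325) and was not called in the other three comparisons. Across the 24 libraries the tested genes whose log2 CPM followed that of *POLH* most closely were *SESN1* (Pearson r = 0.97), *NKX1-2* (r = 0.97) and *FDXR* (r = 0.96). *SESN1* encodes a stress-induced regulator of metabolism and *FDXR* a mitochondrial reductase. The 24 points fall into untreated and OXPT clusters, so each coefficient includes a difference between the 2 states that the genes share.

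**Figure D2:**
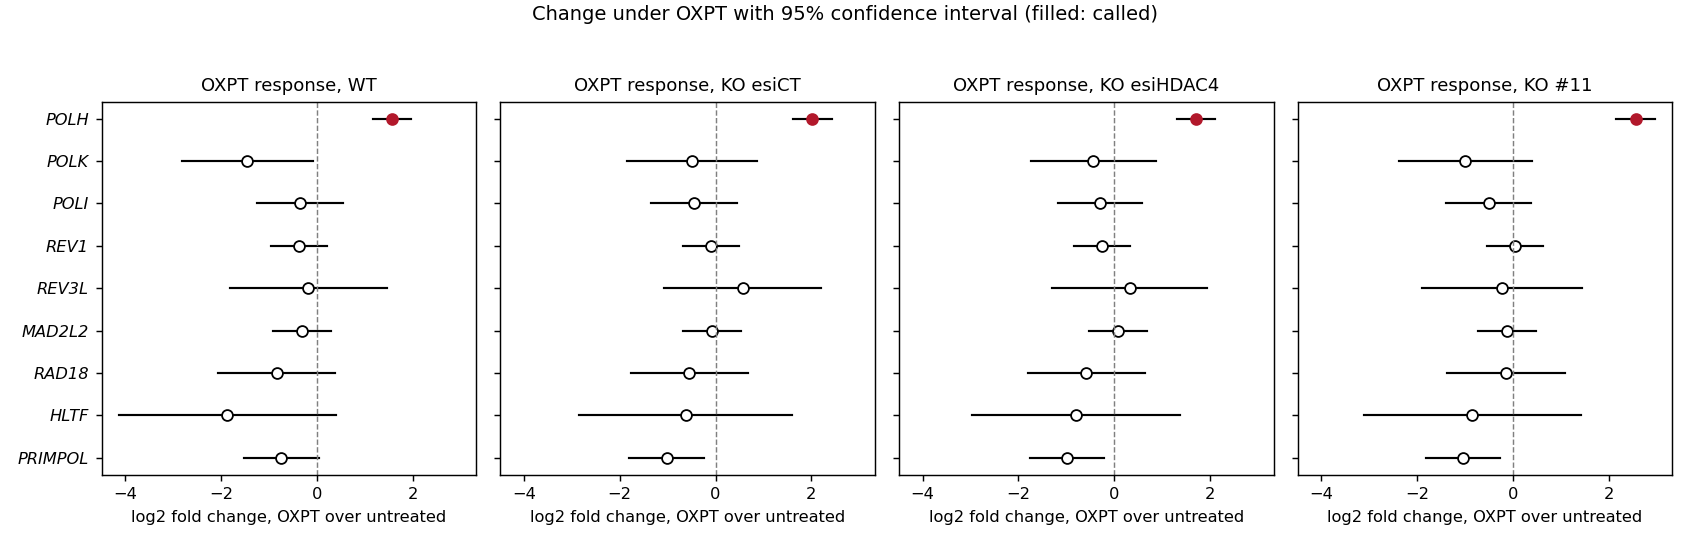
Log2 fold change with OXPT for the 9 tested genes in KO esiCT, KO esiHDAC4, KO #11 and WT cells, with 95% confidence intervals. Filled points were called. Only *POLH* is filled, at 2.02, 1.71, 2.57 and 1.57. Of the 32 other estimates, 28 are below 0, including those of *PRIMPOL*, which passed the count minimum only through untreated groups.

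The other 8 tested genes gave 32 log2 fold changes with OXPT over the 4 backgrounds. None of these was called by edgeR (lowest adjusted p = 0.0861), 4 had an unadjusted p under 0.05, and 28 were negative. Over all tested genes 23.4% to 25.9% had an unadjusted p under 0.05 and 48.6% to 54.6% were negative, depending on the background. The median over the 9 genes was −0.45 in KO esiCT, −0.30 in KO esiHDAC4, −0.23 in KO #11 and −0.37 in WT cells, beside medians over all tested genes of 0.01, 0.02, −0.00 and −0.06. These medians include *PRIMPOL*, which passed the count minimum through untreated groups only. DESeq2 called *PRIMPOL* lower in KO #11 cells, as it did 646 of all 12356 genes.

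*PRIMPOL*, the primase-polymerase that reprimes stalled forks, came nearest to a call. In KO esiCT cells it was at 4.17, 4.40 and 4.29 CPM untreated and at 2.94, 1.81 and 1.43 CPM with OXPT. In KO esiHDAC4 cells it was at 5.29, 5.71 and 4.59 CPM untreated and at 3.40, 2.18 and 2.30 CPM with OXPT. With #11 the values were 5.92, 6.98 and 4.66 CPM untreated and 1.57, 2.77 and 4.24 CPM with OXPT. In these 3 backgrounds every OXPT library lay below every untreated library, a pattern shown by 14.8%, 16.6% and 20.1% of all tested genes in the respective comparisons. In WT cells the values overlapped, with 2.49, 5.44 and 2.47 CPM untreated and 1.68, 1.74 and 2.92 CPM with OXPT. The log2 differences were −1.02 (SE 0.38, adjusted p = 0.0866), −0.98 (SE 0.37, adjusted p = 0.0919), −1.04 (SE 0.37, adjusted p = 0.0861) and −0.74 (SE 0.38, adjusted p = 0.238) in KO esiCT, KO esiHDAC4, KO #11 and WT cells.

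The *PRIMPOL* result turned on single libraries. Without KO esiCT OXPT replicate 1 the KO esiCT difference was −1.40 and called (adjusted p = 0.0380), and without WT untreated replicate 2 it was also called (adjusted p = 0.0479). Over all 24 omissions its adjusted p ran from 0.0380 to 0.275. The KO #11 difference was called without KO #11 OXPT replicate 3 (−1.43, adjusted p = 0.0336) or without WT untreated replicate 2 (adjusted p = 0.0465), with a range up to 0.324. With number 3 left out of every group, 1493 and 1368 of all 12356 genes were called lower in KO #11 and WT cells. *PRIMPOL* was among them in KO #11 (−1.62, adjusted p = 0.00719) and WT cells (−1.22, adjusted p = 0.0363). The gene reached the minimum mean count of 64 in the 3 untreated KO groups (means 65.7 to 97.7) and in no OXPT group (32.3 to 40.0), so it was tested only through the state in which it was high, and a lower value with OXPT is the direction that this filter favours. Of its exon sequence 18.6% is shared with *CENPU*, a centromere gene on the other strand whose log2 differences with OXPT were −0.40, −0.69, −0.38 and −0.49, none of them called.

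The other Y-family polymerases did not pass the test. Among the 12 pairs of same-numbered libraries without and with OXPT, the OXPT library was the lower one in 10 for *POLK*, 10 for *POLI* and 7 for *REV1*. *POLK*, whose product bypasses bulky adducts on guanine and extends mismatched ends, had 3.70, 3.35 and 3.52 CPM in untreated and 2.04, 1.35 and 1.92 CPM in OXPT libraries with #11, without overlap (log2 difference −0.99, SE 0.66, adjusted p = 0.400). In WT cells *POLK* was at 1.84, 10.4 and 1.28 CPM untreated and at 2.00, 2.21 and 0.804 CPM with OXPT, so that 1 untreated library, replicate 2, was far above the other five. The WT log2 difference was −1.45 (SE 0.66, adjusted p = 0.171), and it rested on that library, since without WT untreated replicate 2 it was 0.08 (adjusted p = 0.965). Without WT untreated replicate 3 it was −1.89 and called (adjusted p = 0.0496). In KO esiCT and KO esiHDAC4 cells the differences of *POLK* were −0.49 and −0.43, with overlap. In the fit of the KO #11 libraries alone *POLK* was called lower at the same −0.99 (adjusted p = 0.0258). That fit called 1330 of all 12355 genes lower.

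*POLI*, which encodes the error-prone polymerase iota, ranged from 5.04 to 17.1 CPM in the 12 untreated and from 3.29 to 16.2 CPM in the 12 OXPT libraries. Its log2 differences were −0.45, −0.30, −0.51 and −0.34 in KO esiCT, KO esiHDAC4, KO #11 and WT cells (adjusted p = 0.553, 0.718, 0.519 and 0.680), and the groups overlapped in each. *REV1*, a deoxycytidyl transferase that also holds the other bypass polymerases together, was measured more tightly, at 12.8 to 26.3 CPM untreated and 8.63 to 23.5 CPM with OXPT. Its log2 differences were −0.10, −0.25, 0.05 and −0.37 in the same order (SE 0.28), and the 4 confidence intervals together reached from −0.95 to 0.64. A halving or a doubling of *REV1* mRNA lay outside each of them.

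For polymerase zeta, the catalytic and the accessory subunit were measured with very different precision. *REV3L*, the catalytic subunit, had 8.47, 8.81 and 3.17 CPM untreated and 11.1, 15.8 and 3.09 CPM with OXPT in KO esiCT cells, and 10.9, 13.7 and 5.70 CPM against 20.9, 14.5 and 2.63 CPM in KO esiHDAC4 cells. Replicate 3 was the lowest in each of these 4 groups. The log2 differences of *REV3L* were 0.57, 0.33, −0.23 and −0.18 in KO esiCT, KO esiHDAC4, KO #11 and WT cells, each with an SE between 0.78 and 0.80. *MAD2L2* (REV7), the HORMA-domain subunit that also serves the shieldin complex at DNA breaks, ranged from 94.8 to 298 CPM untreated and from 97.8 to 185 CPM with OXPT. Its log2 differences were −0.08, 0.08, −0.13 and −0.31 (SE 0.29), with confidence intervals between −0.92 and 0.69.

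Among the PCNA ubiquitin ligases, *RAD18*, which starts the pathway, ranged from 6.22 to 31.6 CPM untreated and from 3.57 to 20.5 CPM with OXPT. Its log2 differences were −0.55, −0.58, −0.14 and −0.84 in KO esiCT, KO esiHDAC4, KO #11 and WT cells (adjusted p = 0.600, 0.583, 0.920 and 0.413). *HLTF*, a DNA translocase that extends the ubiquitin chain and reverses forks, spread most. In WT cells *HLTF* was at 5.86, 31.5 and 0.593 CPM untreated and at 5.19, 4.49 and 0.731 CPM with OXPT, so that the span within the untreated group covered every OXPT value. The WT log2 difference was −1.87 (SE 1.09, CI −4.14 to 0.40, adjusted p = 0.311), and without WT untreated replicate 2 it was 0.07 (adjusted p = 0.984). In KO esiCT cells with OXPT *HLTF* was at 9.42, 2.96 and 0.119 CPM, the last from 1 read. *HLTF* shares 27.4% of its exon sequence with *GYG1* on the other strand, and these libraries carry no strand information, so reads there cannot be assigned to one gene. *SHPRH*, the other chain-extending ligase, was at 0.0988 to 6.13 CPM untreated and 0.0731 to 4.56 CPM with OXPT, with mean counts of 7.33 to 49.7 per group, below the minimum of 64 for a test.

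Much of the spread of these genes followed the replicate number. In the 6 groups without #11, replicate 3 was the lowest of the 3 libraries in all 6 for *POLK*, *REV1*, *REV3L*, *RAD18*, *HLTF* and *SHPRH*, whereas 14.6% of all tested genes were lowest in replicate 3 in all 6. *POLI* was lowest there in 4 groups and *PRIMPOL* in 3. *MAD2L2* was instead highest in replicate 3 in 5 of 6 groups, and *POLH* was lowest in 3 and highest in 3. With #11 the pattern did not recur: *REV3L* and *HLTF* were highest in replicate 3 in both groups. The median ratio of the highest to the lowest library within a group was 1.35 for *POLH* and *REV1*, 1.40 for *MAD2L2*, 1.65 for *PRIMPOL*, 2.24 for *POLK*, 2.25 for *POLI*, 2.90 for *RAD18*, 4.30 for *REV3L* and 5.60 for *HLTF*, beside 1.44 for the median tested gene. *RAD18*, *REV3L* and *HLTF* were above 95.8%, 98.9% and 99.7% of tested genes or level with them on this measure.

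**Figure D3:**
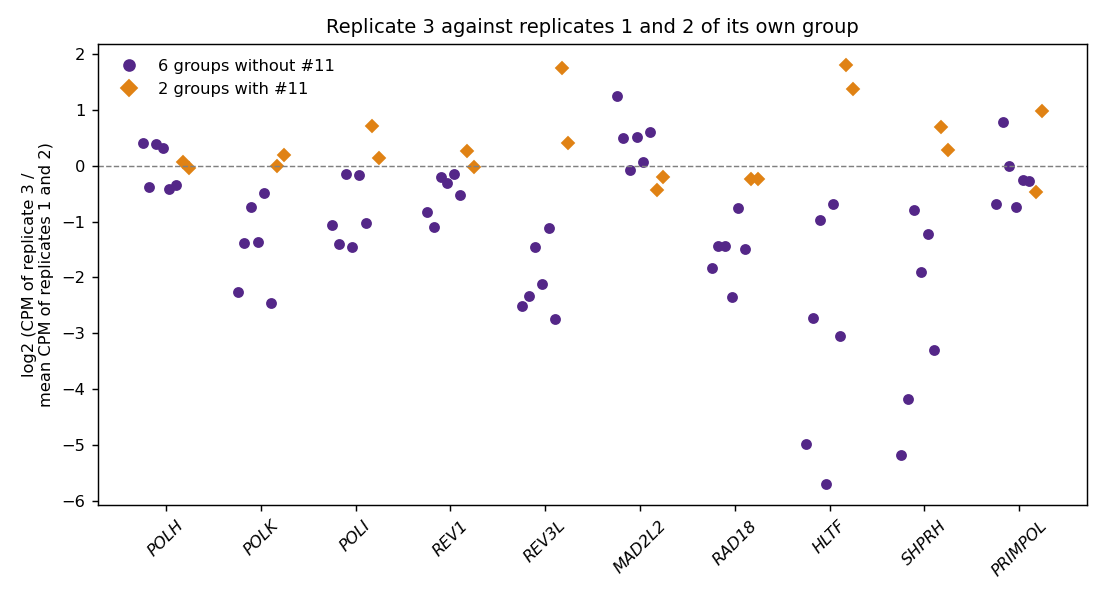
Log2 ratio of replicate 3 to the mean of replicates 1 and 2 for each gene, in the 6 groups without #11 and the 2 groups with it. *POLK*, *REV1*, *REV3L*, *RAD18*, *HLTF* and *SHPRH* lie below 0 in all 6 groups without #11, *MAD2L2* lies mostly above 0, and *POLH* lies on both sides.

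Gene length is given beside these values. *RAD18* spans 188.4 kb, *REV3L* 184.7 kb, *SHPRH* 100.2 kb, *POLK* 98.1 kb and *REV1* 89.6 kb, whereas *POLH* spans 44.3 kb, *PRIMPOL* 45.3 kb and *MAD2L2* 32.9 kb. *HLTF*, with the widest spread, spans 56.4 kb and *POLI* 51.8 kb. Of the 2224 tested genes of 100 kb or more, 30.8% were lowest in replicate 3 in all 6 groups without #11. With OXPT the genes of 100 kb or more had median log2 fold changes of −0.30, −0.36, −0.40 and −0.48 in KO esiCT, KO esiHDAC4, KO #11 and WT cells, and the 4703 genes under 20 kb had medians of 0.22, 0.24, 0.19 and 0.12. The part of gene length, of unmapped reads and of replicate number 3 in the results for the 10 genes was not tested.

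For silencing of *HDAC4*, KO esiHDAC4 was compared with KO esiCT. In untreated cells edgeR called none of the 9 genes, with 1 of all tested genes called (0.00809%). *POLK*, *HLTF* and *PRIMPOL* were higher in all 3 esiHDAC4 libraries than in all 3 esiCT libraries, by 0.73, 1.09 and 0.28 on the log2 scale, and *MAD2L2* was lower in all by 0.32, at an adjusted p of 1.00 for each. Groups did not overlap for 9.61% of all genes in the higher and 12.1% in the lower direction. Between same-numbered libraries, these 3 genes and *POLI*, *REV1*, *REV3L* and *SHPRH* were higher with esiHDAC4 in 3 of 3 pairs and *MAD2L2* was lower in 3 of 3, as were 25.9% and 27.5% of all tested genes in the higher and the lower direction. *POLH* differed by 0.17 (CI −0.22 to 0.56). Under OXPT none of the 9 genes and 0 of all tested genes (0%) were called by edgeR, although 373 genes had an unadjusted p under 0.05 and DESeq2 called 10. *POLH* then differed by −0.14 (CI −0.52 to 0.25).

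For the degrader, KO #11 was compared with KO esiCT. *POLH* was lower in all 3 untreated #11 libraries, at 16.1 to 17.9 CPM, than in the esiCT libraries, at 19.9 to 28.7 CPM. The log2 difference of −0.48 (SE 0.19, CI −0.87 to −0.09) had an unadjusted p of 0.0175 but an edgeR adjusted p of 0.236, so it was not called. It was the only one of 81 values of the 9 genes, over the 9 comparisons other than the OXPT responses, with an unadjusted p under 0.05, and none of the 81 was called. Among all genes 65 (0.526%) were called in this comparison, and the libraries of 14.8% lay wholly lower and of 17.2% wholly higher. *PRIMPOL* was higher in all #11 libraries by 0.45 (adjusted p = 0.651). Under OXPT, where 0.121% of all genes were called, *POLH* differed by 0.06 (CI −0.32 to 0.44). *REV3L* was lower by 1.09 on the log2 scale with #11 under OXPT (adjusted p = 0.679) and *RAD18* by 1.01 in untreated cells (adjusted p = 0.480), both with overlapping groups. Without the number 3 libraries *REV3L* was called lower with #11 in untreated cells (−1.45, adjusted p = 0.0401) and under OXPT (−1.69, adjusted p = 0.0241), and *RAD18* in untreated cells (−1.27, adjusted p = 0.0173). That fit, chosen after seeing the data, called 1792 of all 12356 genes untreated (929 lower) and 1414 under OXPT (868 lower).

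KO esiCT was compared with WT for the genotype. None of the 9 genes was called in either state. Of all genes, 35 (0.283%) were called untreated, or 75 with the replicate number as a block, and 17 (0.138%) under OXPT. *POLH* in KO differed from WT by −0.27 on the log2 scale untreated (CI −0.66 to 0.12) and by 0.18 (CI −0.20 to 0.57) under OXPT. The libraries overlapped for all 10 genes in both states, whereas 6.4% of all genes untreated and 6.39% under OXPT showed no overlap. Under OXPT all 9 estimates were above 0, as were 55.7% of those of all genes. They ran from 0.00 for *MAD2L2* and *PRIMPOL* to 0.69 for *REV3L* (adjusted p = 0.996).

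Whether the OXPT response itself differed between backgrounds was tested as an interaction. Relative to KO esiCT, the *POLH* response was larger with #11 by 0.54 on the log2 scale (SE 0.26, CI −0.00 to 1.09, unadjusted p = 0.0509, edgeR adjusted p = 0.724). It was smaller with esiHDAC4 by 0.31 (CI −0.85 to 0.24, unadjusted p = 0.253). The *POLH* response of KO esiCT cells exceeded the WT response by 0.45 (SE 0.26, CI −0.09 to 1.00, unadjusted p = 0.0985). None of the 9 genes was called in any interaction. Over all genes edgeR called 0 (0%) in each, with 855 unadjusted p under 0.05 for #11, 18 for silencing and 197 for genotype, and DESeq2 called 30, 0 and 0. The largest interaction estimate of another gene, 1.24 for *HLTF* between genotypes, had a CI of −1.89 to 4.38.

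**Figure D4:**
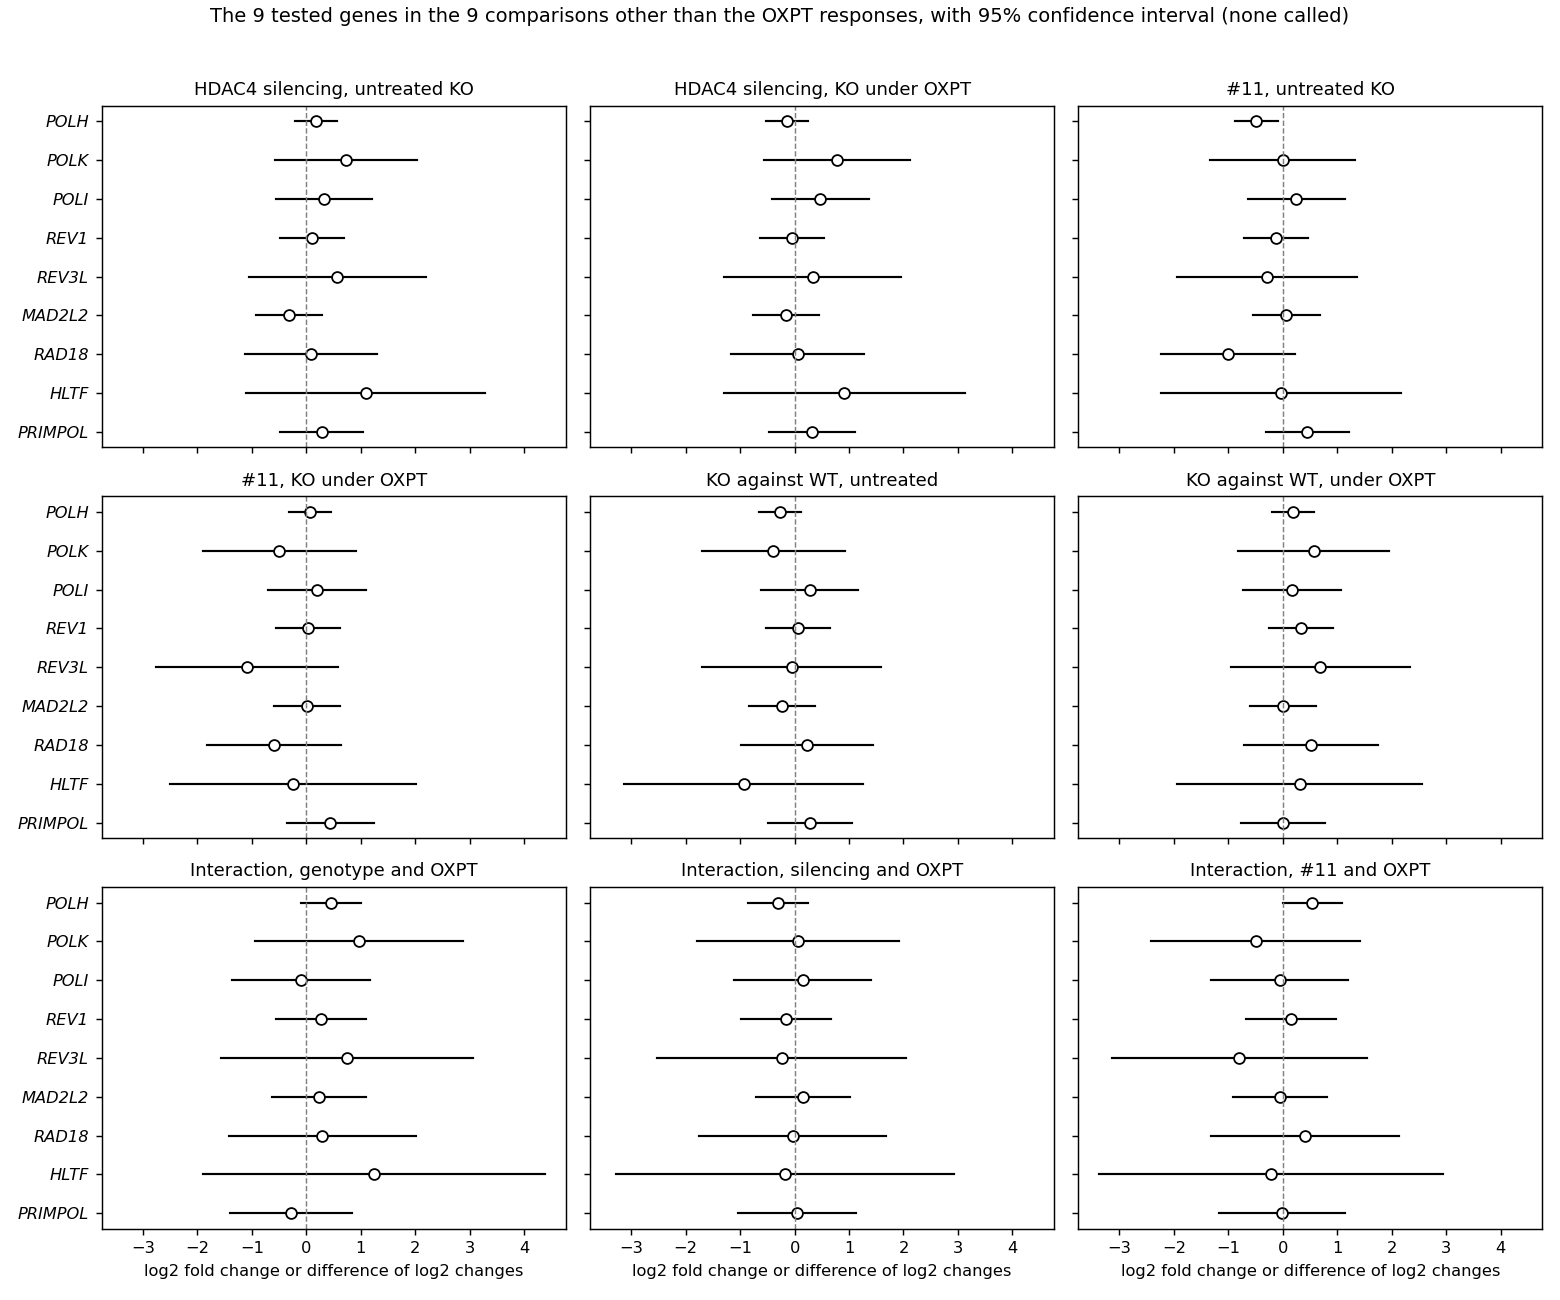
Log2 differences with 95% confidence intervals of the 9 tested genes in the 9 comparisons of silencing, #11, genotype and their interactions with OXPT. None was called, and the intervals of *HLTF* and *REV3L* are the widest.

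A wider list of 35 damage tolerance genes, covering the PCNA ubiquitin axis, polymerase delta subunits (of which *POLD2* and *POLD3* also serve polymerase zeta), MAD2L2 partners, fork remodellers with single-strand binding proteins, and other polymerases, held 33 tested genes. With OXPT, 1 of the 33 was called higher in each background. Of all genes, 6.19%, 6.41%, 5.92% and 5.09% were called higher in KO esiCT, KO esiHDAC4, KO #11 and WT cells. In the same order, 1, 2, 2 and 3 of the 33 were called lower, beside 5.06%, 5.5%, 3.5% and 5.58% of all genes. The median of the list was −0.23, −0.29, −0.22 and −0.38. These values include *ZRANB3*, called lower in each background, and *SHLD1*, called in none. Both passed the count minimum through untreated groups only, which favours lower values with OXPT. *PCNA*, the clamp that RAD18 modifies and another known p53 target, rose in all 4 comparisons, by 1.11, 1.04, 1.74 and 0.92 on the log2 scale (adjusted p = 0.000533, 0.000831, 5.48e-06 and 0.00255). In KO esiCT cells its level was 279 ± 29.1 CPM untreated and 600.5 ± 105 with OXPT (SD, n = 3).

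*ZRANB3*, a translocase recruited by polyubiquitinated PCNA that remodels stalled forks, fell in all 4 comparisons, by 1.64, 1.74, 2.14 and 2.34 on the log2 scale (adjusted p = 0.0245, 0.0134, 0.00636 and 0.00267). It reached the minimum mean count of 64 in 3 untreated groups and in no OXPT group. Group means ran from 63.0 to 112 over all untreated groups and from 13.7 to 30.0 with OXPT. *ZRANB3* was thus tested only through the state in which it was high, and a fall was the direction that this filter favours. *RPA3*, the smallest subunit of the single-strand binding complex RPA, fell in KO esiHDAC4 (−1.11, adjusted p = 0.0106) and WT cells (−0.98, adjusted p = 0.0244). *USP1*, which removes ubiquitin from PCNA, fell in KO #11 (−1.06, adjusted p = 0.0407) and WT cells (−1.07, adjusted p = 0.0378). The 4 subunits of polymerase delta in the list, the 6 tested MAD2L2 partners and the 4 other polymerases held no called gene in any of the 4 backgrounds. None of the 33 genes was called in the 9 comparisons of silencing, #11, genotype and interaction.

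**Figure D5:**
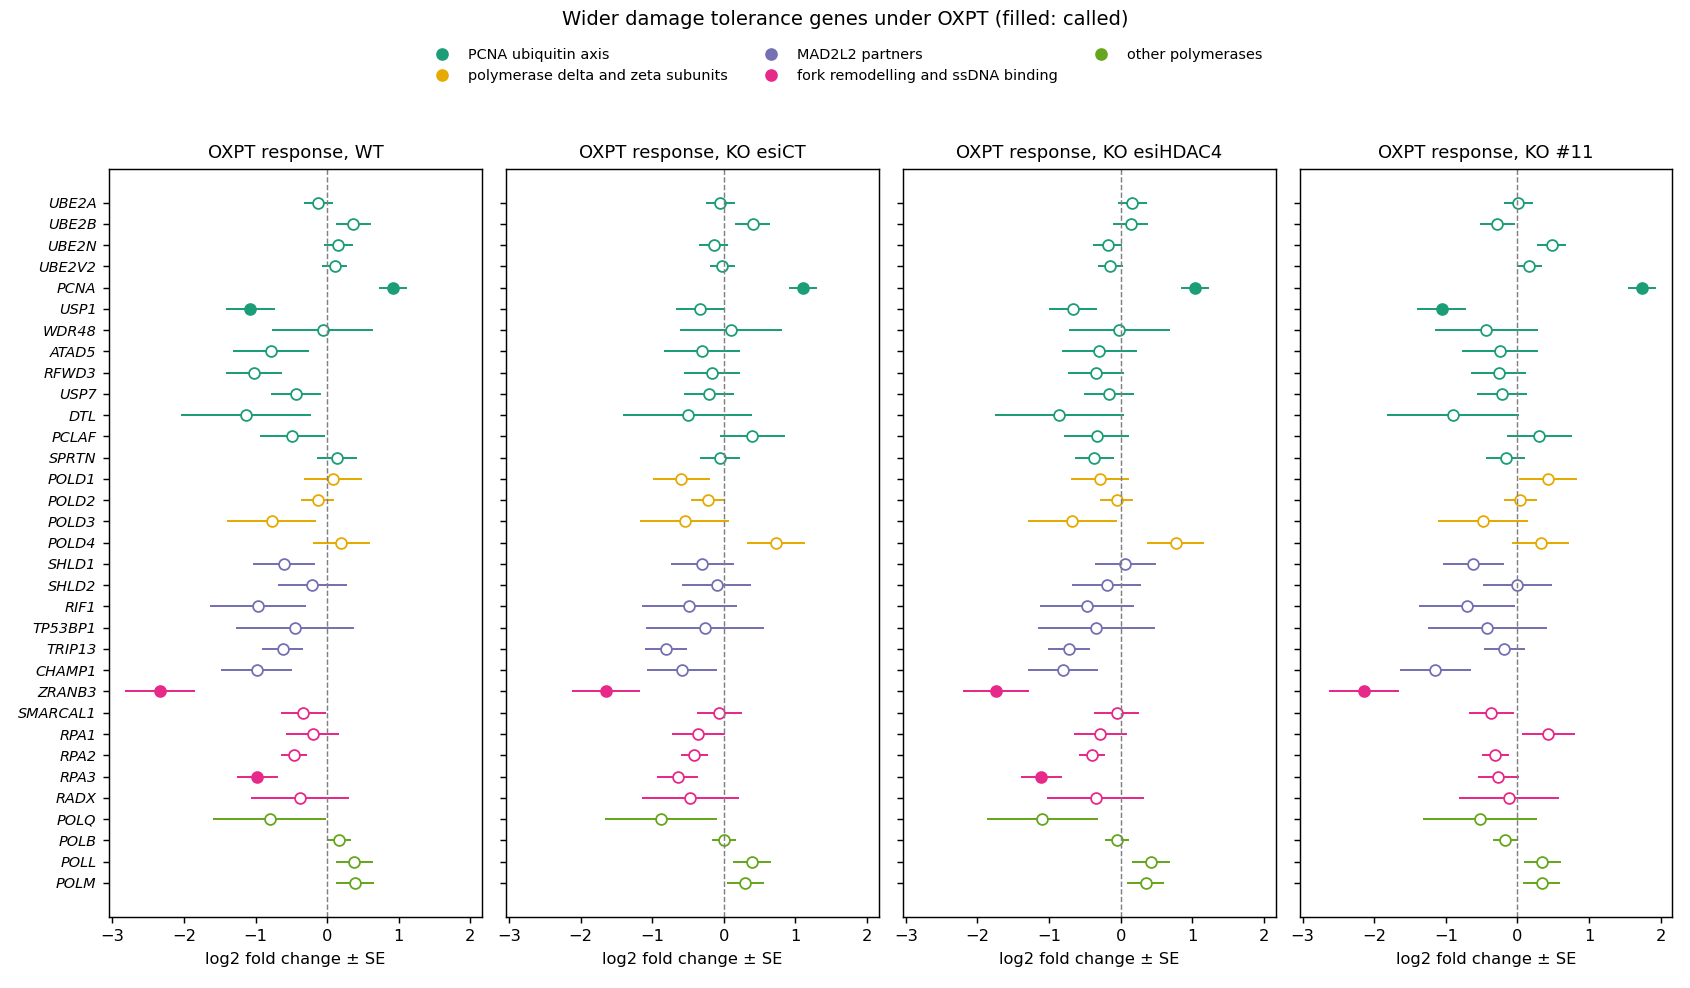
Log2 fold change with OXPT (± SE) of the 33 tested genes of the wider damage tolerance list in the 4 backgrounds; filled points were called. *PCNA* is filled to the right of 0 in all 4 (0.92 to 1.74) and *ZRANB3*, which passed the count minimum only through untreated groups, to the left in all 4 (−1.64 to −2.34).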

How the data were processed

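RNA-seq libraries of polyA mRNA numbered 36, of which 24 fell into 8 groups of 3 and 12 were left out because their labels give opposite OXPT states. The authors deposited raw counts per gene and library, in the layout of STAR gene counts, with unstranded, forward and reverse columns. The submitters' processing notes name Trimmomatic 0.39, STAR 2.7.11a and hg38, while the study's methods describe salmon with DESeq2, and no source used here says how the deposited tables relate to the latter.

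The unstranded column was used, because reverse and forward totals were nearly equal in every library (ratio 1.00 to 1.02), although the labels name a kit sold as stranded. With no strand in the counts, reads from exons shared with a gene on the other strand cannot be assigned. Besides *HLTF* and *PRIMPOL*, *MAD2L2* shares 16.1% of its exon sequence in this way, with *FBXO6*. *SHPRH* shares 11.2% with *EPM2A-DT* and *REV1* 11.0% with *EIF5B*, and other genes have smaller shares. Rows that name no gene (unmapped, multimapping, no feature, ambiguous) held 26.0% to 41.2% of reads and were left out. Identifiers were matched to GENCODE 44 (62130 of 62757 with version, 62686 without). The 24 libraries were fitted in 1 model with edgeR 4.0.16 (R 4.3.3; TMM, robust quasi-likelihood F test, 1 coefficient per group), over genes whose mean count reached 64 or more in any group. CPM were computed with TMM library sizes, and the SE and 95% CI of a log2 difference come from the same fit. The test was also run on counts with known changes, simulated from the means and dispersions of this fit. All 24 pairs of replicates of a group differed beyond counting noise (chi-square per degree of freedom 8.31 to 224), and precision beyond that is set by 3 libraries per group. CPM compared between genes were divided by exon length.

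The 10 genes are described in all 13 comparisons, and genes of the wider list are named where called in at least 1 OXPT comparison. Genes, lists and tests were chosen with earlier results of these data known. *GTPBP2*, *XPO5* and *CENPU* were added as neighbours. Alternatives were DESeq2 1.42.0, RLE factors, the reverse column, other count minimums, the compared groups alone, the replicate number as a block, and omission of each library. Same-numbered libraries deviated together (every correlation of deviations from the group means above 0.1, for example 0.176 to 0.688 in WT) in the comparisons other than #11 untreated (−0.252 to 0.108), #11 under OXPT (−0.233 to 0.128) and the #11 interaction. The labels do not say what a number shares, so the pairing rests on these values.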

Additional observations from a re-analysis of the deposited data

Results flagged for a closer look

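*POLH* was also high in libraries that entered no comparison. In the 12 WT libraries whose title and treatment entry give opposite OXPT states, *POLH* was read as CPM. These CPM used TMM factors computed over the grouped and ungrouped libraries together, so they differ slightly from the values above. On this scale the 12 grouped untreated libraries lay between 15.3 and 34.3 CPM and the 12 grouped OXPT libraries between 69.2 and 109.6 CPM. The libraries titled WT PROTAC11 OXPT 1, 2 and 3 held 70.0, 74.3 and 46.6 CPM, and those titled WT siHDAC4 OXPT 1, 2 and 3 held 107.5, 95.0 and 66.7 CPM. All 6 exceeded every grouped untreated library, while their treatment entries name no OXPT. The libraries titled without OXPT held 26.8 to 31.6 CPM (WT PROTAC11) and 20.7 to 32.8 CPM (WT siHDAC4 UNT), with treatment entries that name OXPT. These values do not decide which entry is right.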

How the results depend on the processing

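Of 3926 values of single genes under the alternatives, 3904 kept their direction, where called, and their side of the threshold, 21 passed it newly, 1 lost it and none reversed; 223 uncalled values changed sign. The number of the 10 genes called was 1 in each OXPT comparison and 0 elsewhere. In KO esiHDAC4 it was 2 with the reverse column (*PRIMPOL*, −0.95) and 2 with the replicate block and no count minimum (*HLTF*, −1.09). In KO #11 it was 2 with DESeq2, 2 with the replicate block in DESeq2, 2 without number 3 (*PRIMPOL* each) and 3 in the compared groups alone (*PRIMPOL*, *POLK*). In WT cells it was 2 with the reverse column (*PRIMPOL*, −0.99), 2 without number 3, 4 without a count minimum and 4 with the block and no minimum (*POLK*, *HLTF* and *SHPRH* with *POLH*), and 0 in the compared groups alone. Without number 3 it was 2 for #11 untreated and 1 for #11 under OXPT. Leaving out 1 library gave 1 to 2 in KO esiCT, KO #11 and WT cells. *PRIMPOL* was untested with the count minimum in every group. The fits without number 3, and those with the block joined to no minimum or to DESeq2, were chosen after seeing the data. The cause of these changes was not tested.

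The replicate block changed no gene's call, with 1 called in each OXPT comparison and 0 elsewhere. Over all genes it moved the called count from 1 to 4 for silencing untreated, from 65 to 392 and 15 to 130 for #11 untreated and under OXPT, from 35 to 75 for genotype untreated, and from 0 to 15 for the #11 interaction. In the OXPT comparisons (KO esiCT, KO esiHDAC4, KO #11, WT) the called counts of 1390, 1472, 1165 and 1318 became 898, 941, 782 and 831 with the minimum in every group, 585, 1410, 2686 and 85 in the compared groups alone, and 2151, 2219, 2823 and 2571 without number 3. The counts of 65, 15, 35 and 17 for #11 and for genotype, untreated and under OXPT, became 420, 127, 126 and 31 with DESeq2, 480, 367, 322 and 91 without a minimum, 530, 0, 1 and 0 in the compared groups alone, and 1792, 1414, 54 and 37 without number 3.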
